A study of Homo sapiens with 40 samples.

Results

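MT-ND6, the mitochondrial gene ENSG00000198695, was followed by its symbol as 1 gene of the 57939 genes listed in a table of total RNA and as 1 of the 58336 genes listed in a table of polyA RNA. The gene was selected on its measured levels in the extracts, in particular its high TPM in the soluble nuclear extract, so its extract levels are given here as a description with no test. The cells were H1, an established line of human embryonic stem cells labelled wild type, taken before differentiation (day 0), and 3 and 5 days into a mesoderm protocol that opened with 1 day of BMP4 and went on with bFGF, both growth factors. On each day RNA was taken from cells extracted in sequence with the buffers of a protein fractionation kit. The groups were the soluble nuclear (SNE), pellet (PE), membrane (ME), chromatin-bound nuclear (CBNE) and cytoplasmic (CE) extracts, and libraries named INPUT. The CBNE buffer contained micrococcal nuclease, and the labels also call the pellet extract cytoskeletal. With 2 libraries for each of 18 groups there were 36 libraries of total RNA, to which 4 libraries of day 0 polyA RNA were added, 2 of nucleus and 2 of cytoplasm. All libraries came from a single cell line, and the labels do not say whether the 2 libraries of a group came from separate cultures, so every p-value measures only the spread between these libraries.

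The human mitochondrial genome is a small DNA circle that is transcribed from both strands into long RNAs, which are then cut at the tRNAs that lie between the coding genes. Nearly all mitochondrial mRNAs and both rRNAs are made this way from one strand, and MT-ND6 is the only mRNA whose gene lies in the other orientation, among a minority of the tRNAs. Its protein is a membrane subunit of complex I, the NADH dehydrogenase of the respiratory chain. Most human mitochondrial mRNAs carry a short poly(A) tail, and the ND6 mRNA is known as the exception that lacks a stable one. In the text the other 12 mRNAs are called heavy-strand mRNAs and MT-ND6 the light-strand mRNA, after the usual names for the 2 promoters' products.

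MT-ND6 lay on the minus strand of the mitochondrial chromosome of GRCh38, chrM:14149-14673, as a single exon of 525 bases with 1 annotated transcript in GENCODE 29. Its end met that of MT-ND5, another complex I subunit, on the plus strand at chrM:12337-14148 with no base between them. On the other side lay the tRNA gene MT-TE on the minus strand at chrM:14674-14742 and then MT-CYB, the cytochrome b gene of complex III, on the plus strand at chrM:14747-15887. The first 60 bases of the MT-ND6 and MT-ND5 mRNAs, taken from the GENCODE 29 transcripts, are shown because their base use differs so widely, and the last sequence is the plus strand across the meeting point of both genes, chrM:14119-14178. Capitals mark the start codon in the upper pair and the bases of the MT-ND6 gene in the last.
MT-ND6, chrM:14614-14673, minus strand: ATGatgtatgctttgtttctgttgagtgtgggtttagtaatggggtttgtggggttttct
MT-ND5, chrM:12337-12396, plus strand: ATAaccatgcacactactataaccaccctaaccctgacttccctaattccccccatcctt
Junction of MT-ND5 and MT-ND6, plus strand: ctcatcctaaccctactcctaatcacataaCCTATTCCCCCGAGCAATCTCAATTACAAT

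The opening of MT-ND6 held 21 G and 3 C, and that of MT-ND5 held 2 G and 26 C. Over the whole mRNA, MT-ND6 was 35.6% G and 7.05% C, whereas the 12 heavy-strand mRNAs ranged from 6.28% to 16.2% G and from 29.5% to 35.98% C. Its share of A was 19.6% against 26.8% to 38.6% in the heavy-strand mRNAs, and its share of T was 37.7% against 21.7% to 30.3%. The longest run of A in MT-ND6 was 3 bases. No source used here says whether the reads kept their strand. Reads of MT-ND6 mRNA and of RNA copied from the opposite strand at the same place therefore cannot be told apart. Such RNA could be any that runs on past the end of MT-ND5, precursor or mature.

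**Figure D1:**
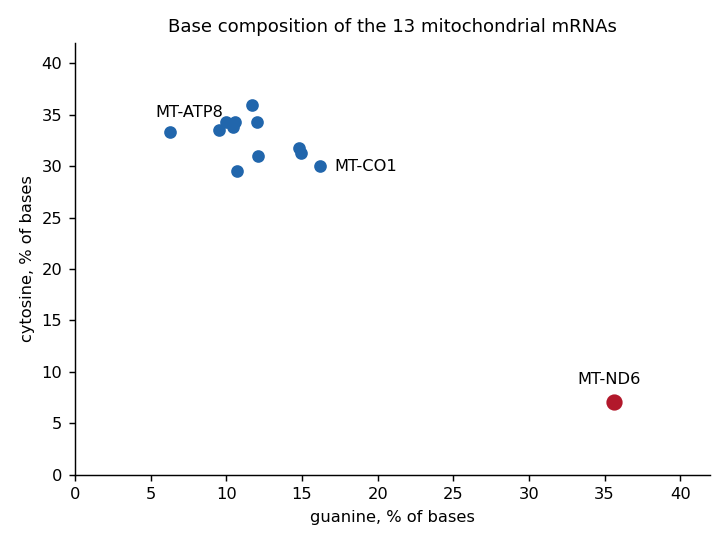
Share of guanine (x axis, %) and of cytosine (y axis, %) in each of the 13 mitochondrial mRNAs. MT-ND6, at 35.6% G and 7.05% C, sits apart from the other 12, which lie between 6.28% and 16.2% G.

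Values are TPM, a unit of transcript abundance that is scaled by gene length and is a share of the library, not an amount per cell, so fewer cells of a kind and less RNA per cell cannot be told apart. Columns of total RNA summed to between 989513 and 998559 TPM. A single read on 1 kb of transcript was estimated to equal 0.707 to 1.81 TPM in SNE, ME, CE and INPUT, 3.37 to 30.8 TPM in PE, 13.8 to 61.8 TPM in CBNE and 0.231 to 0.356 TPM in polyA RNA. The labelled cell state was checked in INPUT, where the mesoderm factor HAND1 stood at 0.740 TPM on day 0, 30.9 TPM on day 3 and 787 TPM on day 5, and the stem cell factor POU5F1 at 80.9, 59.8 and 36.2 TPM. NANOG and LIN28A were present on day 0 (224 and 1349 TPM), and SOX2 was listed at 0 in INPUT on all 3 days. In day 0 the nuclear RNA MALAT1 averaged 9577 TPM in SNE and 2181 TPM in CE, and GAPDH mRNA averaged 882 TPM in SNE and 6792 TPM in CE. In day 0 CBNE, also labelled nuclear, MALAT1 averaged 1319 TPM and GAPDH 433 TPM, so that MALAT1 too stood below its level in CE. In polyA RNA MALAT1 averaged 614 TPM in the nucleus and 14.5 TPM in the cytoplasm.

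MT-ND6 was an abundant RNA of the soluble nuclear extract on every day and was scarcest in the cytoplasmic extract. In SNE it stood at 21526 and 20700 TPM on day 0, at 14128 and 14152 TPM on day 3, and at 15611 and 16372 TPM on day 5. These levels rested on an estimated 4577 to 8475 reads of MT-ND6 per library. In day 0 SNE it took 2.16% and 2.08% of the whole library. The 13 mitochondrial mRNAs together summed to 194478 and 189746 TPM in day 0 SNE, against 195600 and 192185 TPM in day 0 INPUT. Mitochondrial mRNA as a whole was thus not depleted from this extract. A high level in SNE does not by itself place MT-ND6 in the nucleus.

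The pellet extract, which is the last to be taken, held MT-ND6 at 6197 and 3345 TPM on day 0, then at 15548 and 13251 TPM on day 3, and at 14627 and 14067 TPM on day 5. Both day 0 libraries lay below all 4 later ones. Depth differed along with this: a read on 1 kb equalled 25.4 and 30.8 TPM in the day 0 PE libraries, 6.60 and 7.25 TPM on day 3 and 5.37 and 3.37 TPM on day 5, and MT-ND6 rested on an estimated 128 and 57 reads on day 0 and on 959 to 2192 reads later. The part of depth in this difference between days was not tested.

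The membrane extract, where the 13 mitochondrial mRNAs together took the largest part of the library, held MT-ND6 at 16105 and 15257 TPM on day 0, at 5937 and 6951 TPM on day 3, and at 8713 and 8385 TPM on day 5. The day 0 libraries lay above the later ones, with no overlap. SNE was above ME on each day, again with no overlap between libraries.

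In CBNE the gene stood at 2377 and 2922 TPM on day 0, at 1185 and 711 TPM on day 3, and at 1531 and 1973 TPM on day 5, from an estimated 13 to 39 reads per library. In CE it stood at 169 and 149 TPM on day 0, at 93.4 and 116 TPM on day 3, and at 128 and 84.5 TPM on day 5, from an estimated 52 to 104 reads. INPUT held 5968 and 5356 TPM on day 0, 3101 and 3177 TPM on day 3, and 3485 and 4273 TPM on day 5. CE lay below every other fraction on every day.

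**Figure D2:**
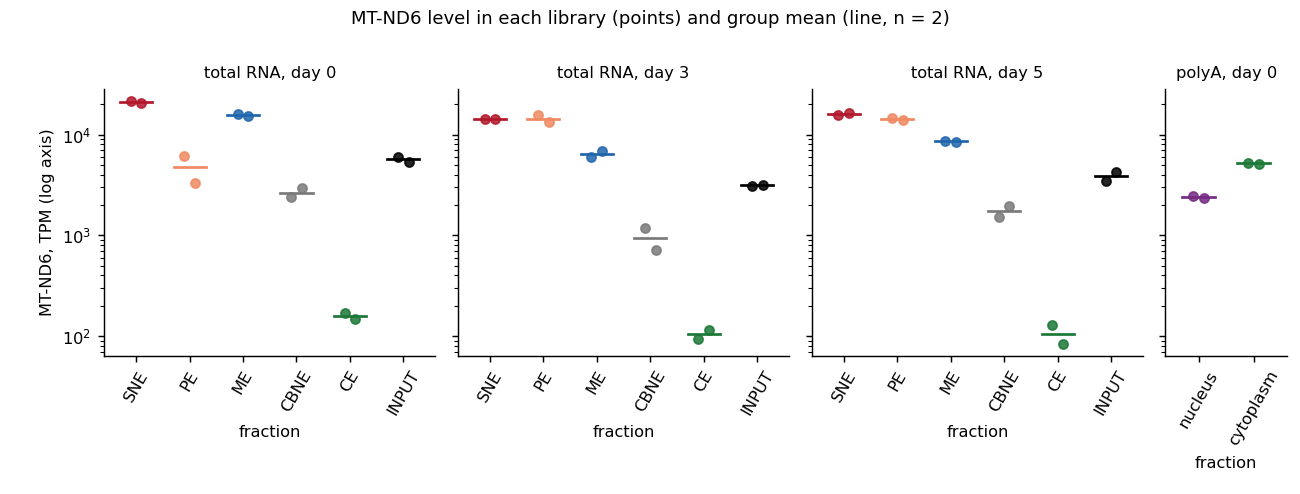
MT-ND6 level (y axis, TPM, log scale) in each library (points) by fraction (x axis), with the mean of the 2 libraries as a line, for total RNA of days 0, 3 and 5 and for day 0 polyA RNA. SNE lies between 14128 and 21526 TPM in all 6 libraries, and CE between 84.5 and 169 TPM.

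Ordered by mean, the 18 groups began with day 0 SNE at 21113 ± 584 TPM (± is the SD of 2 libraries), which overlapped no other group. The next 5 were day 5 SNE at 15991 ± 538, day 0 ME at 15681 ± 600, day 3 PE at 14399 ± 1624, day 5 PE at 14347 ± 396 and day 3 SNE at 14140 ± 17.3 TPM, and each of these overlapped its neighbour in the order. Day 5 ME followed at 8549 ± 232 TPM with no overlap on either side. Day 3 ME (6444 ± 717), day 0 INPUT (5662 ± 433), day 0 PE (4771 ± 2017) and day 5 INPUT (3879 ± 557) formed a second chain of overlapping neighbours. Below them stood day 3 INPUT (3139 ± 53.9 TPM), then day 0, day 5 and day 3 CBNE (2650 ± 385, 1752 ± 312 and 948 ± 336 TPM), none overlapping its neighbours. Day 0 CE came next at 159 ± 13.98 TPM, and day 5 CE (106 ± 30.6 TPM) and day 3 CE (105 ± 15.8 TPM) overlapped at the bottom.

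Within the mitochondrial mRNAs the light-strand message took its largest share in SNE on days 0 and 5 and in PE on day 3, and its smallest in CE on each day. Of the summed TPM of the 13 mRNAs, MT-ND6 made up 10.99% ± 0.112 of day 0 SNE, 5.67% ± 0.0241 of day 3 SNE and 8.79% ± 0.853 of day 5 SNE (SD, n = 2 each). In PE the day 0 share was 2.47% ± 1.05, followed by 8.20% ± 0.353 on day 3 and 6.49% ± 0.716 on day 5. In ME it was 2.72% ± 0.0318, 1.303% ± 0.0124 and 1.90% ± 0.104 on days 0, 3 and 5, and in INPUT 2.92% ± 0.187, 1.51% ± 0.0448 and 1.96% ± 0.196. CBNE held 4.06% ± 0.267, 4.42% ± 1.41 and 2.57% ± 0.519, and CE 1.06% ± 0.0245, 0.582% ± 0.0932 and 0.725% ± 0.147. An exact permutation test of 2 libraries against 2 cannot go below p = 0.33, so no test was made of single shares.

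In SNE, ME, CE and INPUT the share was lower on day 3 than on day 0, and the higher day 3 library lay below the lower day 0 library in each. In PE the order was turned, with 8.45% and 7.95% on day 3 against 3.21% and 1.72% on day 0. In CBNE the days overlapped, with 5.42% and 3.43% on day 3 against 4.25% and 3.87% on day 0. On day 5 the share lay above that of day 3 with no overlap in SNE, ME and INPUT, below it with no overlap in PE and CBNE, and overlapped with it in CE.

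**Figure D3:**
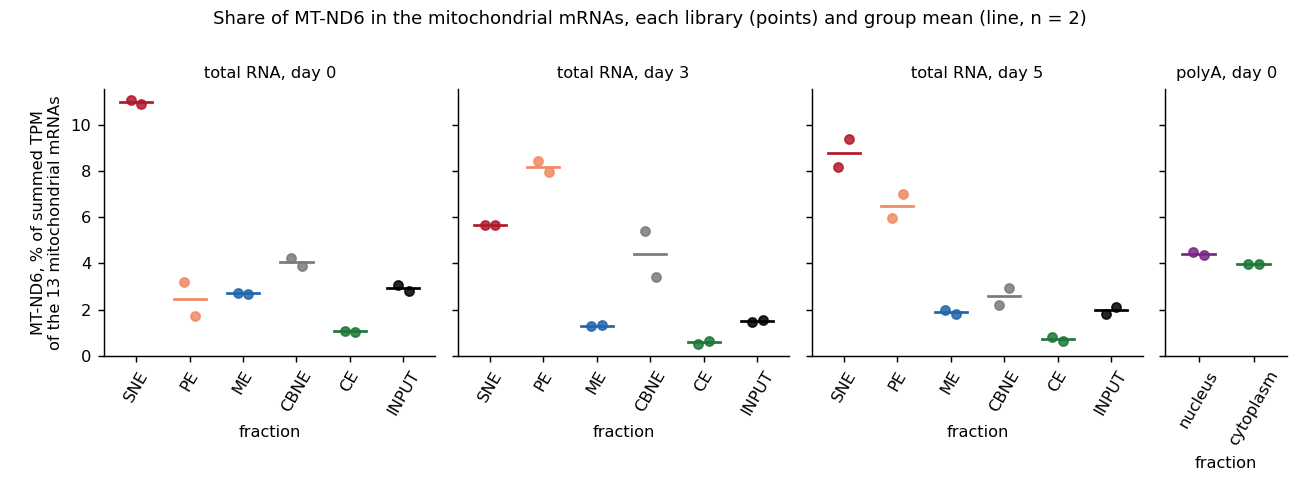
Share of MT-ND6 in the summed TPM of the 13 mitochondrial mRNAs (y axis, %) in each library (points) by fraction (x axis), with the mean of the 2 libraries as a line. The share is highest in day 0 SNE, at 11.1% and 10.9%, and lowest in CE, where no library passes 1.08%.

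By rank among the 13 mRNAs, MT-ND6 was 2nd in both day 0 SNE libraries, behind MT-CO1, the catalytic subunit of cytochrome oxidase, which averaged 37190 TPM there. It was 9th in both day 3 SNE libraries and 5th and 4th in those of day 5. It was 12th or 13th of 13 in all ME and INPUT libraries and 13th in all 6 CE libraries. Set against its neighbour MT-ND5 on a scale of TPM per TPM, MT-ND6 reached 1.79 in day 0 SNE, 0.547 in day 3 SNE and 0.826 in day 5 SNE. In ME the same ratio was 0.388, 0.187 and 0.264 on the 3 days.

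The heavy-strand mRNAs, made in the same organelle, were distributed differently between the membrane and the soluble nuclear extract. For MT-ND6 the mean TPM in SNE was 1.35 times that in ME on day 0, 2.19 times on day 3 and 1.87 times on day 5. For the 12 heavy-strand mRNAs this ratio ran from 0.202 to 0.513 on day 0 and from 0.310 to 0.757 on day 3. On day 5 it ran from 0.209 to 0.722. Each value lay below that of MT-ND6 on the same day. How all genes stood on this ratio was not computed. The nearest to MT-ND6 were MT-ATP8, a small subunit of ATP synthase, at 0.513 on day 0 and 0.722 on day 5, and MT-CO1 at 0.757 on day 3. MT-ND5, whose gene touches that of MT-ND6, stood at 0.293, 0.750 and 0.600. Against INPUT, SNE held 3.73, 4.50 and 4.12 times the MT-ND6 TPM on days 0, 3 and 5, and the highest heavy-strand ratio was 1.26, 1.87 and 1.501.

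**Figure D4:**
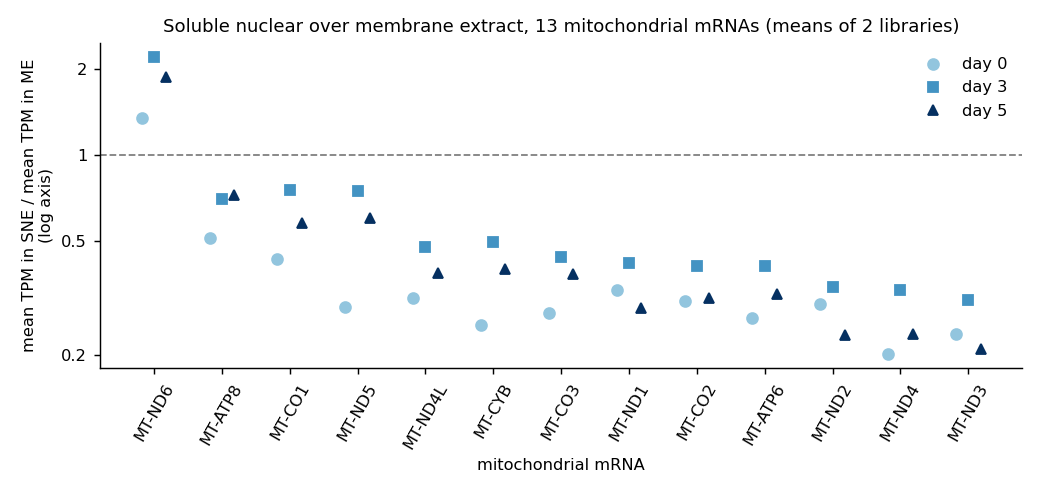
Mean TPM in SNE over mean TPM in ME (y axis, log scale, each mean of 2 libraries) for the 13 mitochondrial mRNAs (x axis) on days 0, 3 and 5. MT-ND6 lies above the dashed line at 1 on each day, between 1.35 and 2.19, and each of the other 12 lies below it.

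The values that led to the choice of the gene were of this kind: log2 differences between an extract and the mean of the other 4 extracts of its day. For MT-ND6 in SNE they were 3.17 on day 0, 3.03 on day 3 and 2.88 on day 5, the highest of the 13 mRNAs each time. The heavy-strand mRNAs lay between 0.41 and 1.35, between 1.48 and 3.00, and between 0.33 and 1.29 on these days. The 3.00 of day 3 was that of MT-ATP8, which stood at 81.3 and 0 TPM in the shallow day 3 CBNE libraries, and the next was MT-ND2 at 2.04. Without the CBNE library in which MT-ATP8 was listed at 0, MT-ATP8 came to 2.21 and MT-ND6 to 2.94 on day 3. In CE the same difference was -5.63, -5.81 and -6.19 for MT-ND6, the lowest of the 13 each time. In ME it was 2.64, 1.61 and 1.75, rank 11, 13 and 13 of 13.

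In PE this log2 difference of MT-ND6 was 0.41 on day 0 (rank 11 of 13), 3.06 on day 3 and 2.68 on day 5 (rank 1 on both). Mean TPM in PE was 0.304 times that in ME on day 0, 2.23 times on day 3 and 1.68 times on day 5, and the highest heavy-strand value was 0.552, 0.682 and 0.827. From day 0 the PE level of MT-ND6 was 3.02 times as high on day 3 and 3.01 times as high on day 5. The heavy-strand mRNAs of PE ran from 0.625 to 1.53 times on day 3 and from 0.899 to 1.81 times on day 5. A rise in PE was not particular to MT-ND6. Its neighbour, the tRNA gene MT-TE, averaged 368, 2582 and 2197 TPM in PE on days 0, 3 and 5. The nuclear RNA MALAT1 averaged 3150, 7430 and 12851 TPM there. The tRNA gene MT-TN went the other way, at 385, 194 and 244 TPM.

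Most light-strand tRNA genes stood higher in SNE than in ME, and on days 3 and 5 so did most heavy-strand tRNA genes. The 8 light-strand tRNA genes had a median ratio of SNE to ME of 1.89 on day 0, 4.45 on day 3 and 3.45 on day 5, with 7, 8 and 8 of 8 above 1. The 12 heavy-strand tRNA genes that had a value stood at medians of 1.01, 3.38 and 2.07, with 6, 10 and 11 of 12 above 1. On day 0 the light-strand values ran from 0.145 for MT-TC to 3.78 for MT-TS1. The share of all genes with a ratio above 1 was not computed, so these counts show no trait of the light strand. MT-TE, the tRNA gene for glutamate that lies next to MT-ND6 on the same strand, averaged 3824 TPM in SNE against 1839 TPM in ME on day 0, 2917 against 627 TPM on day 3, and 2431 against 810 TPM on day 5. Reads in genes as short as a tRNA can also come from longer RNAs that run across them. The mitochondrial rRNA genes MT-RNR1 and MT-RNR2 averaged at most 34.5 TPM in any SNE, ME, CE or INPUT group and reached 1199 TPM in day 0 CBNE.

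In INPUT, MT-ND6 stood lower after the start of differentiation while the heavy-strand mRNAs stood close to their day 0 level. The mean was 0.554 times that of day 0 on day 3 and 0.685 times on day 5. Across the 12 heavy-strand mRNAs the ratio ran from 1.02 to 1.23 on day 3 and from 0.896 to 1.26 on day 5. The light-strand tRNA genes were divided. From day 0 to day 3 the INPUT mean of MT-TE went from 622 to 220 TPM and that of MT-TP from 3476 to 1713 TPM. MT-TY (150 to 102 TPM) and MT-TN (22.4 to 14.3 TPM) were lower too. MT-TQ (355 to 527 TPM), MT-TA (92.8 to 111 TPM), MT-TC (24.8 to 39.9 TPM) and MT-TS1 (181 to 186 TPM) were higher. On day 5 MT-TE and MT-TP lay between their earlier means. These tRNA means are given with no test. On the log2(TPM + 1) scale, in a limma model over all libraries of total RNA, MT-ND6 differed by -0.85 ± 0.24 (SE) between day 3 and day 0, with a Benjamini-Hochberg adjusted p = 0.0198 over 24735 genes, and both day 3 libraries lay below both day 0 libraries. The SE rests on a spread estimated over all 18 groups, the shallow PE and CBNE groups among them, and not on INPUT alone. A gene was called only if it also differed by at least 1 on the log2 scale, and by that rule MT-ND6 was not called. The adjusted p alone was under 0.05 for 15.3% of all genes in this contrast. Without any single one of the 4 libraries the adjusted p was between 0.0620 and 0.141. With quantile normalisation the difference was -1.44 and passed both limits.

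Between day 5 and day 0 the difference of MT-ND6 was -0.55 ± 0.24 (adjusted p = 0.119, limma) and between day 5 and day 3 it was 0.30 ± 0.24 (adjusted p = 0.639, limma), neither of which passed. The INPUT libraries of the 3 days did not overlap in MT-ND6. Of all genes tested, 4.06% were called higher and 3.38% lower on day 3 against day 0, 6.15% and 6.67% on day 5 against day 0, and 2.49% and 2.32% on day 5 against day 3. Of the 12 heavy-strand mRNAs, 0 were called in limma in each of these contrasts, and 1, 0 and 0 had an unadjusted p under 0.05, which 24.5%, 32.1% and 20.2% of all genes had. Their log2 differences between day 3 and day 0 had a median of 0.12 and ran from 0.03 to 0.30, where the median over all genes was -0.01. Of these MT-ND5 had the highest value, 0.30 (adjusted p = 0.0909).

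The lower level on day 3 was also seen in 4 of 5 extracts as a description. The exception was PE, where MT-ND6 stood at 3.02 times its day 0 level. Day 3 over day 0 in mean TPM of MT-ND6 was 0.670 in SNE, 0.411 in ME, 0.657 in CE and 0.358 in CBNE. The heavy-strand mRNAs ran from 0.979 to 2.19 in SNE, from 0.794 to 1.02 in ME and from 1.09 to 1.46 in CE, so MT-ND6 had the lowest ratio of the 13 in these 3 extracts. In CBNE, where all 12 heavy-strand mRNAs were lower on day 3 too, MT-ND6 was 5th of 13, in a range of 0.0767 to 0.431. Day 5 over day 0 was 0.757 in SNE, 0.545 in ME, 0.666 in CE and 0.661 in CBNE. From day 3 to day 5 MT-ND6 had the highest ratio of the 13 mRNAs in SNE (1.13), ME (1.33), CE (1.01) and INPUT (1.24), and was 12th and 13th of 13 in CBNE and PE.

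In polyA RNA of day 0, MT-ND6 had reads in both compartments and a lower TPM in the nucleus. It stood at 2464 and 2370 TPM in the nucleus, against 5205 and 5167 TPM in the cytoplasm, from an estimated 3625 to 11740 reads per library. The groups did not overlap. The ND6 mRNA is known to lack a stable poly(A) tail. Reads of it and of polyA RNA from the opposite strand, such as RNA running on past the end of MT-ND5, cannot be told apart here either. In limma over the 4 polyA libraries the log2 difference of nucleus minus cytoplasm was -1.10 ± 0.03 (SE), with an adjusted p = 4.0e-06 over 16667 genes, and the gene was called lower. Of all genes tested in polyA RNA 30.0% were called higher in the nucleus and 6.22% lower, and the median gene lay at 0.50.

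The heavy-strand mRNAs had the same direction in polyA RNA relative to the library total, and 9 of 12 were called lower in the nucleus, a count that was 12 with a common median, 2 with quantile normalisation and 0 when they were themselves the scale. MT-CO3, a cytochrome oxidase subunit, was just short of the size for a call at -0.998 without cytoplasm replicate 1, which left 8 called. Their median difference was -1.39, and 8 of 12 lay further down than MT-ND6, with MT-ND2, a complex I subunit, at -2.19. The 3 that were not called, because their difference was below 1 in size, were MT-ND3 (-0.73), MT-CO1 (-0.72) and MT-ND5 (-0.66), of which MT-ND3 and MT-ND5 are complex I subunits as well. The share of MT-ND6 in the 13 mRNAs was accordingly 4.48% and 4.37% in the nucleus, against 3.96% and 3.98% in the cytoplasm. Scaled to the heavy-strand mRNAs in place of the library total, the difference of MT-ND6 turned to 0.16 (adjusted p = 8.7e-04, limma), and with quantile normalisation it was -0.41. Set against MT-ND5 alone, in TPM per TPM, it stood at 0.719 ± 0.0125 in the nucleus and 0.977 ± 0.0536 in the cytoplasm (SD, n = 2 each).

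**Figure D5:**
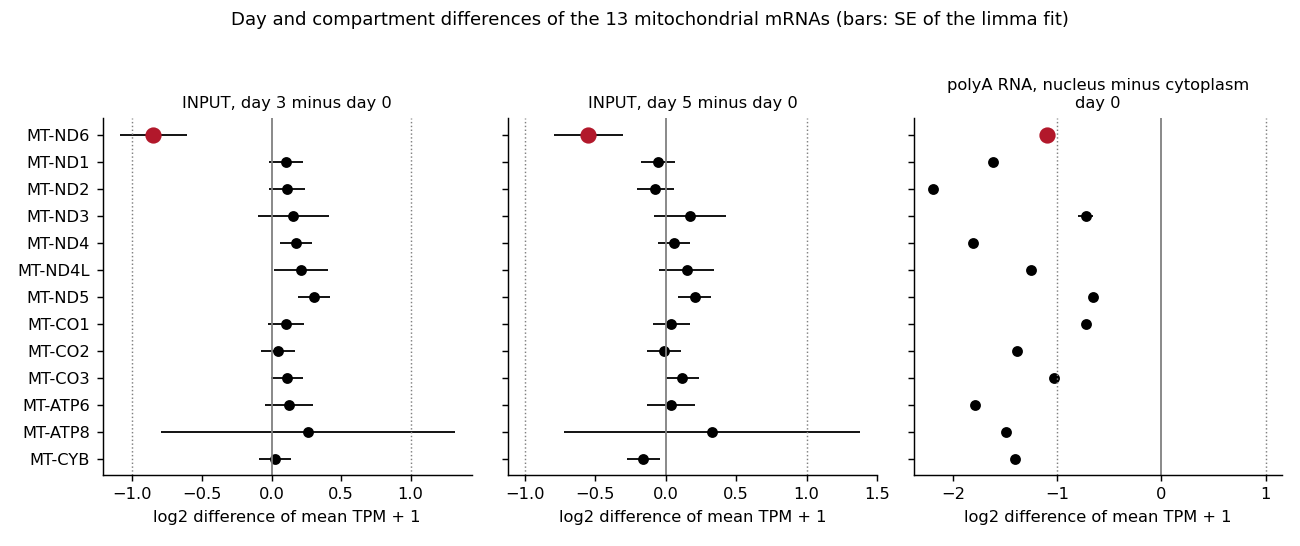
Differences on the log2(TPM + 1) scale (x axis) with their standard errors from limma for the 13 mitochondrial mRNAs (rows), MT-ND6 in red. In INPUT MT-ND6 lies at -0.85 on day 3 and -0.55 on day 5 against day 0, and in polyA RNA it lies at -1.10 among the heavy-strand mRNAs, dotted lines marking the size a call needs.

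A list of 22 nuclear-encoded factors of mitochondrial transcription, RNA processing, stability and decay was read beside MT-ND6. Of these 20 were tested in total RNA, and 0 were called in limma in each INPUT contrast, with 3, 9 and 5 at an unadjusted p under 0.05 for day 3 against day 0, day 5 against day 0 and day 5 against day 3, beside 24.5%, 32.1% and 20.2% of all genes. An adjusted p under 0.05, whatever the size, was reached by 0, 6 and 2 of the 20, beside 15.3%, 23.9% and 11.2% of all genes. The 2 between day 5 and day 3, named after their values were seen, were TFB2M, a mitochondrial transcription factor, at -0.48 and PNPT1, an RNA-degrading enzyme, at -0.56. Of the 6 between day 5 and day 0, 5 were lower, beside 13.3% of all genes, and 1 was higher. The lower ones were POLRMT, FASTKD1 (-0.65), PNPT1 (-0.62), LRPPRC (-0.52) and ELAC2 (-0.36), and the higher one was MTERF1 (0.41). The median difference of the 20 was -0.09, -0.38 and -0.25, beside -0.01, -0.08 and -0.04 over all genes. FASTK, which has a mitochondrial form known to be needed for the ND6 mRNA to accumulate, differed by -0.02 ± 0.17 on day 3 and by 0.25 ± 0.17 on day 5 against day 0 (adjusted p = 1 and 0.363, limma). POLRMT, the mitochondrial RNA polymerase, differed by -0.95 ± 0.20 on day 5 against day 0 (adjusted p = 0.00115, limma), short of the size for a call.

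In polyA RNA 19 of the 22 factors were tested, and 2 were called higher and 2 lower in the nucleus, beside 30.0% and 6.22% of all genes. FASTK (1.85 ± 0.06) and POLRMT (1.24 ± 0.05) were higher, and POLRMT lost its call with a common median (0.69). HSD17B10, a subunit of the mitochondrial RNase P that cuts at the 5′ ends of tRNAs, was lower (-1.15 ± 0.05, and 0.10 when scaled to the heavy-strand mRNAs), and so was SLIRP (-1.31 ± 0.07, and -0.066 with an adjusted p = 0.395 in limma under that scaling), the partner of LRPPRC in keeping mitochondrial mRNAs stable. Adjusted p-values of these 4 in limma ran from 5.8e-06 to 2.3e-05. These values are of the factors' own mRNAs, which are made in the nucleus.

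The genes whose levels ran most like those of MT-ND6 over the 18 groups of total RNA were sought among 10132 genes with a mean of at least 10 TPM, by Pearson's r of group means of log2(TPM + 1). The groups share libraries, depth and composition, so r is a description. The 10 highest were MT-CO1 (0.932), MT-ND5 (0.918), the tRNA gene MT-TY (0.912), MT-ND4L (0.906), BDP1 (0.886), MT-CYB (0.882), MTATP6P1 (0.880), ZNF829 (0.877), BOD1L1 (0.875) and the tRNA gene MT-TS1 (0.873), and the 11th had 0.870. The median r over all genes was 0.11. Of the 10, 4 were heavy-strand mRNAs and 2 were light-strand tRNA genes, while MTATP6P1 is a nuclear copy of mitochondrial sequence whose reads may not be separable from those of the mitochondrial genes. Over the 12 groups without CBNE and PE only 2 of the 10 remained among the highest 10. There r was 0.995 for MT-TP, 0.985 for MT-TE and 0.972 for MT-TY, all light-strand tRNA genes. It was 0.950 for MT-CO1 and 0.943 for MT-ND5. The lowest of the light-strand tRNA genes was MT-TC at 0.865. Which genes ran most like MT-ND6 thus depended on the shallow extracts.

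The nuclear genome holds copies of MT-ND6 sequence, and 27 genes of this family, with symbols beginning MTND6P, were listed. Of these 25 were at 0 in all 36 libraries of total RNA. MTND6P21 and MTND6P25 were above 0 in 17 and 2 libraries. The summed level of the copies was at most 16.4 TPM, in day 5 SNE, and at most 0.749% of that of MT-ND6, in day 5 CE. Reads that match MT-ND6 and a copy alike cannot be told apart.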

How the data were processed

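Total RNA (36 libraries) and polyA RNA (4 libraries) were deposited as 2 tables of TPM, computed by the authors. The unit is not named in the file headers and was read from the column sums. The genome hg38 and the tools Salmon 1.3.0, featureCounts 1.6.2, HISAT2 2.0.5 and GATK are named per the submitters' processing notes, and which tool made which table is not given in the sources used here. Groups and replicate numbers came from the sample titles. Coordinates and sequences came from GENCODE 29 (GRCh38) by gene ID. Where the tables named a gene differently, the symbol of the total RNA table was used.

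The tables hold no read counts. The value of 1 read was estimated as the commonest product of TPM and length among genes with a single transcript. Of the values up to 50 reads, 99.5% to 99.6% came within 0.05 of a whole number in polyA RNA and 50.4% to 61.5% in total RNA, so read numbers are estimates and no count test was run.

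A gene entered the test if 2 or more libraries held it at 1 TPM or above. Testing was on log2(TPM + 1), a scale that understates changes of low genes, with limma 3.58.1 (R 4.3.3), a mean per group and a trended, robust prior. Both tables were fitted apart. A call needed a Benjamini-Hochberg adjusted p under 0.05 over all genes tested and a log2 difference of at least 1. Named were MT-ND6, the other mitochondrial mRNAs, the mitochondrial rRNA genes, the light-strand tRNA genes, the 10 genes most like MT-ND6, its nuclear copies, and, of a list of mitochondrial RNA factors, FASTK and the members called. Factors with an adjusted p under 0.05 between INPUT days were named as well, after their values were seen. MT-ND6, the lists and the tests were chosen with earlier results of these data known. The script was tested on simulated data. The closing section gives the alternatives tried: the pseudocount, the filter, the scaling, the prior, a replicate block, the libraries in the fit and leaving out each library.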

Additional observations from a re-analysis of the deposited data

Results flagged for a closer look

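The relation of the pellet extract to other extracts turned round between days for MT-ND6, with no overlap of the 2 libraries of each group in each case, and this difference between days was not tested. In mean TPM of MT-ND6, PE held 0.304 times the level of ME on day 0, 2.23 times on day 3 and 1.68 times on day 5. In the share of MT-ND6 among the 13 mitochondrial mRNAs, SNE held 4.45 times the value of PE on day 0, 0.691 times on day 3 and 1.35 times on day 5. In the same share, PE held 0.608 times the value of CBNE on day 0, 1.85 times on day 3 and 2.53 times on day 5. The day 0 PE libraries were also the shallowest of that extract, with an estimated 128 and 57 reads of MT-ND6, and those of CBNE held 13 to 39. The part of depth in these turns was not tested. MT-TE and MALAT1 also had a higher mean TPM in PE on days 3 and 5 than on day 0, and MT-TN a lower one.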

How the results depend on the processing

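Library numbers gave no sign of pairing in the tested contrasts: deviations of libraries with the same number correlated at 0.04, 0.01 and 0.01 between INPUT days and at 0.03 in polyA RNA. Low correlations do not exclude pairing, and pairing between extracts of the same day was not checked. With a replicate block the adjusted p of MT-ND6 was 0.0211 (day 3 minus day 0), 0.121 (day 5 minus day 0), 0.639 (day 5 minus day 3) and 3.9e-06 (polyA), and no call changed. In INPUT only quantile normalisation changed a call of MT-ND6, to lower on day 3 (-1.44) and day 5 (-1.36) against day 0. Without each library the differences were -0.93 to -0.77, -0.70 to -0.40 and 0.15 to 0.44, a lone library being taken to vary like the rest, and -1.13 to -1.07 in polyA RNA. Over all alternatives the adjusted p ran from 5.3e-05 to 0.141 (day 3 minus day 0), 6.7e-05 to 0.478 (day 5 minus day 0) and 0.108 to 1 (day 5 minus day 3). In polyA RNA the call of MT-ND6 was lost with quantile normalisation (-0.41) and the sign turned when libraries were scaled to the heavy-strand mRNAs (0.16), which sets their own level equal by construction. The heavy-strand mRNAs called lower were then 2 and 0 in number. Under quantile normalisation MT-ND4L (0.018) and MT-ND5 (0.038) turned as well, and under heavy-strand scaling MT-ND3 (0.54), MT-ND4L (0.015), MT-ND5 (0.61), MT-CO1 (0.54), MT-CO3 (0.24) and HSD17B10 (0.10). In INPUT FASTK between day 3 and day 0 lay at 0.0061 without mitochondrial genes in the totals, 0.036 with a common median, 0.0042 with quantile normalisation and -0.048 to 0.010 without each library, PNPT1 in the same contrast at -0.14 to 0.020 without each library, and MT-ND5 between day 5 and day 3 at 0.072 with quantile normalisation. Calls were also lost for SLIRP in polyA RNA with heavy-strand scaling (-0.066), for POLRMT with a common median (0.69) and for MT-CO3 without cytoplasm replicate 1 (-0.998), and the common median gave calls to MT-ND3 (-1.28), MT-CO1 (-1.28) and MT-ND5 (-1.22), 12 of 12 in all. The value of MT-ATP8 without a day 3 CBNE library was added after the data were seen. The cause of these turns was not tested. Counts over all genes moved by over 1.5 times in INPUT day 3 minus day 0, where 1004 higher became 610 with heavy-strand scaling and 836 lower became 1271 with the 6 INPUT libraries alone, and in day 5 minus day 3, where 573 lower became 272 with heavy-strand scaling. In polyA RNA 5005 higher became 2913 with a filter of 10 TPM, 2397 with a common median, 2346 with quantile normalisation and 12602 with heavy-strand scaling, and 1037 lower became 2809, 2421 and 11 with these 3 scalings. Weighted by length (TPM times gene length), the share of MT-ND6 in the 13 mRNAs on days 0, 3 and 5 was 5.75%, 2.77% and 4.38% in SNE, 1.21%, 3.94% and 3.16% in PE, 1.38%, 0.668% and 0.975% in ME, 1.91%, 2.01% and 1.11% in CBNE, 0.572%, 0.309% and 0.382% in CE and 1.501%, 0.766% and 1.01% in INPUT, and it was 2.26% in polyA nucleus and 2.12% in polyA cytoplasm. Of the 10 genes most like MT-ND6, 9 remained with a pseudocount of 0.1 and 2 without CBNE and PE. Levels in CBNE and day 0 PE rest on few reads, with 2 libraries a group, and TPM shows shares of a library, not amounts.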
